A study of Homo sapiens with 24 samples.

Results

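The rows examined here were the microRNA genes of a ribosome footprint table: gene rows whose symbol starts with MIR and a digit, or with MIRLET7, and whose counts summed to 100 or more over the 12 footprint libraries. Of 1625 microRNA rows among 57992 gene rows, 92 met this rule. They were 61 hairpin rows, each a microRNA precursor, of 1542 in the table, and 31 host transcript rows, the longer RNAs whose names end in HG and which carry microRNAs, of 83. No footprint count at all was listed for 972 of the 1625 rows. The rule used the summed footprint count, so the level of these rows in footprints is given below as a description, with no test. MIR191, MIR93, MIR16-2 and MIR17HG were given as markers of the set.

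The cells were K562, an established human line from a myelogenous leukaemia, in which doxycycline at 50 ng/ml switches on CRISPR interference, a repressor brought to promoters by a guide RNA. One guide, sgDDX3, targets the RNA helicase gene DDX3X, and the other, sgGal4, was the control. Cells with either guide were sampled on day 0, on day 3 and on day 14, each time as ribosome footprints (RNA left in cycloheximide-fixed ribosomes after RNase I and collected on size-exclusion columns) and as cytosolic RNA depleted of ribosomal RNA. That made 12 groups of 2 libraries, 24 libraries in all, and every group carries the same doxycycline label, day 0 included. The labels do not say that the 2 libraries of a group came from separate cultures, nor whether the cells were 1 clone, so p-values measure the spread between these libraries, which may be technical. The comparisons ask what an early (day 3) and a longer (day 14) DDX3X knockdown does, read here at microRNA loci. The knockdown was weaker at day 14 than at day 3, by the DDX3X values below.

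MicroRNAs are short RNAs cut from a hairpin. The nuclear enzyme DROSHA, with DGCR8, frees the hairpin from a longer primary transcript, XPO5 carries it to the cytoplasm, and DICER1 cuts out the mature strand. The mature strand is held by an Argonaute protein and pairs with target messenger RNAs mainly through its seed, the bases 2 to 8 from its 5′ end. Argonaute complexes act on messenger RNAs that are being translated, and a mature microRNA is close in length to a ribosome footprint, while a hairpin is not a coding sequence. Counts in a hairpin row of a footprint library are therefore not a measure of translation. The count tables do not show which stretch of a hairpin the reads covered, so mature strand, precursor and primary transcript cannot be told apart in them.

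The mature sequences below are from the hairpin rows that passed a test (none is given for MIR320A), from their seed relatives, from the let-7 rows, which did not pass, and from 4 microRNAs of the cluster inside MIR17HG, written 5′ to 3′ with the seed in capitals. They are RefSeq sequences of GRCh38.p14, matched by gene symbol for 57 of the 61 hairpin rows. For MIR425 only the 3p strand was matched, so its 5p strand is not shown. Rows whose mature RNAs share a seed stand together.
miR-191-5p: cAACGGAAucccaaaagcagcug
miR-425-3p: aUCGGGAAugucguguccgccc
miR-16-5p: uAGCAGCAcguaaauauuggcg
miR-15b-5p: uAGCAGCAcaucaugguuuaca
miR-93-5p: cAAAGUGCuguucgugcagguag
miR-106b-5p: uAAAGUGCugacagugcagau
miR-17-5p: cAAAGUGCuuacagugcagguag
miR-20a-5p: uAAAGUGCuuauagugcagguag
miR-25-3p: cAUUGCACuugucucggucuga
miR-92a-3p: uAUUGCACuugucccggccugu
miR-19a-3p: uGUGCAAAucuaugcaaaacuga
miR-26a-5p: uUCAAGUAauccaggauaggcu
miR-26b-5p: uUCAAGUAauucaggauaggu
let-7a-5p: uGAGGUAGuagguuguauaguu
let-7d-5p: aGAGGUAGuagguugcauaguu
let-7f-5p: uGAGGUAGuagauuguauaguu
let-7i-5p: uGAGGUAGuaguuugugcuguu
miR-146b-5p: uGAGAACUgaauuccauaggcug
miR-342-3p: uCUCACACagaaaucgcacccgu
miR-126-3p: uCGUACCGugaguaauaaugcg
miR-193b-3p: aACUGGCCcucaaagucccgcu
miR-615-3p: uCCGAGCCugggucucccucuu

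Several of these sequences bear on how the counts can be read. MIR16-1 on chromosome 13 and MIR16-2 on chromosome 3 both encode miR-16-5p, and MIR26A1 and MIR26A2 both encode miR-26a-5p. Among the 57 hairpin rows with a matched sequence, 6 share a mature sequence with another of them, and reads of such a sequence have no unique home. Close relatives differ by few bases: counted from the 5′ end, let-7f-5p differs from let-7a-5p by G12A, let-7d-5p by U1A and U16C, and miR-26b-5p from miR-26a-5p by C11U and C21U. The mature RNAs of the matched rows were 18 to 26 bases long, with a median of 22, and the hairpin rows themselves 55 to 180 bases.

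Among the 12 footprint libraries, total counts ranged from 6223963 to 15240512, and among the 12 RNA libraries from 10266619 to 43256563. A count of 0 allows up to 3 counts, which is 0.316 CPM (counts per 1000000) in the median footprint library. CPM for single rows use library sizes with TMM factors (a trimmed mean of log ratios between libraries), and intervals and limits cover counting error only. DDX3X checked the guides: its RNA was 185 and 174 CPM in the sgGal4 libraries of day 3 and 38.9 and 33.7 in those of sgDDX3, and at day 14 it was 201 and 187 against 134 and 101. The log2 difference was -2.29 (SE 0.11) at day 3 and -0.72 (SE 0.10) at day 14, with adjusted p = 1.6e-11 and 4.03e-05 by the quasi-likelihood test of edgeR, which is the test used throughout. In footprints the DDX3X difference changed by 1.43 on the log2 scale from day 3 to day 14 (SE 0.16, adjusted p = 0.00579). In RNA, 10 of the 12 K562 and erythroid markers had a mean of at least 10 CPM, against 0 of 7 lymphoid, 0 of 6 myeloid and 0 of 3 megakaryocytic markers. Of 4 markers of other tissues, ALB and COL1A1 had means of 0.965 and 0.724 CPM, and EPCAM and VIM 28.6 and 300 CPM. The replicate libraries of each group differed by more than sampling noise, so none was counted as a duplicate.

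The hairpin rows chosen by their footprint sum were nearly invisible in cytosolic RNA, while their counts in footprints follow from the rule. The 61 hairpin rows held 68452 footprint counts, 0.0587% of all, and 1383 RNA counts, 0.000612%. All 61 were higher in footprints than in RNA when counts were summed over 12 libraries and scaled to CPM, with a median ratio of 96.9. RNA counts were 0 for 7 of them and 1 to 3 for another 13. The 31 host transcript rows showed no such gap as a set: 10 were higher in footprints and 21 lower, with a median ratio of 0.816. They held 90075 footprint and 93943 RNA counts. Still, 6 of them were at least 10-fold higher in footprints, MIR17HG among them. Because the rows were chosen by their footprint sum, the opposite choice is set beside it: of the 21 hairpin rows with an RNA sum of 100 or more, 17 were lower in footprints than in RNA, and the other 4 were among the 61.

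**Figure D1:**
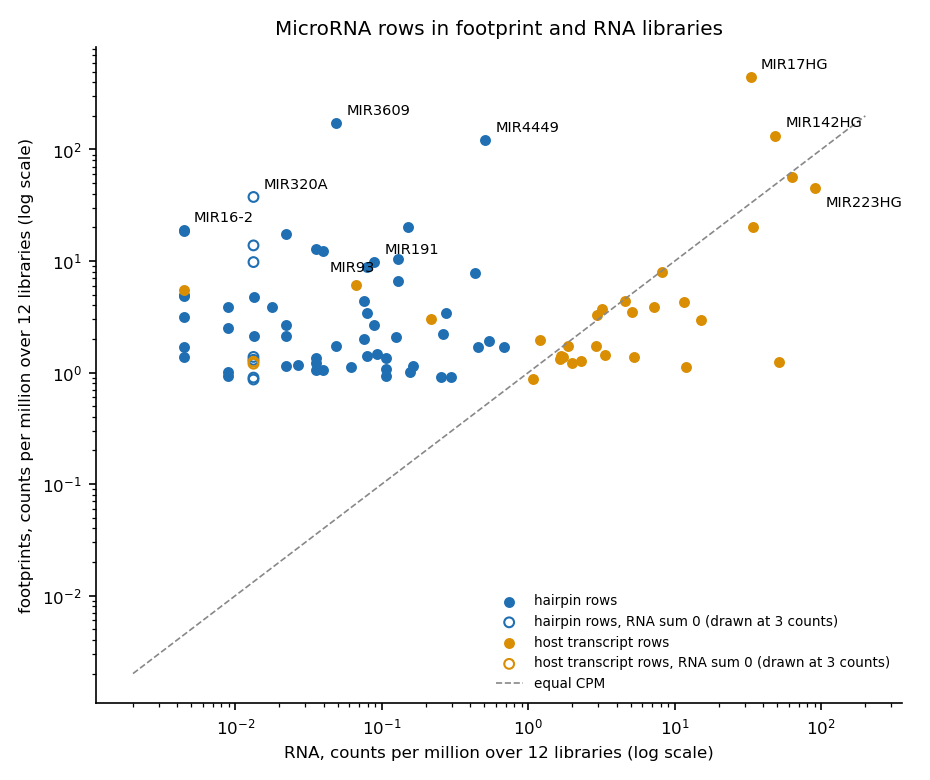
Footprint CPM against RNA CPM of the 92 microRNA rows, each summed over 12 libraries, on log axes, with hairpin rows in blue, host transcript rows in orange and the line of equal CPM dashed. Open circles are rows with no RNA count, drawn at the value of 3 counts. The hairpin rows all sit above the line, while 21 of the 31 host rows sit below it.

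The highest hairpin rows in footprints were MIR3609 with 171 CPM over the 12 libraries, MIR4449 with 122 CPM, MIR320A with 37.5 CPM and MIR146B with 20.1 CPM. In RNA MIR3609 had 0.0487 CPM and MIR4449 had 0.505. MIR16-1 and MIR16-2 had 2187 and 2181 footprint counts and 1 RNA count each, a ratio of 4237 (95% exact interval 760 to 167409) for MIR16-1 and of 4225 (757 to 166950) for MIR16-2. MIR320A had 4369 footprint counts and no RNA count, so it was at least 2821-fold higher in footprints, against a floor of 3 counts over all RNA libraries. MIR93 had 1423 footprint counts and 9 RNA counts, and MIR191 1132 and 20. Among host transcripts MIR17HG stood highest, with 448 CPM in footprints and 32.9 CPM in RNA, a ratio of 13.6. MIR142HG, the transcript of a blood cell microRNA, had 133 CPM in footprints and 48.1 in RNA. MIR223HG, which carries a myeloid microRNA, had 45.1 in footprints and 90.9 in RNA, and MIR4435-2HG had 57 and 63.6.

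At the edge of the rule, MIR182 (105 counts), MIR193BHG (102) and MIR320B1 (101) were just inside, and MIR30D (99), MIR185 (97), MIR1302-2HG (93) and MIR326 (93) just outside. With the 2 sgDDX3 libraries of day 14 left out of the sum, 77 of the 92 rows still reached 100, so 15 depended on those libraries, MIR15B, MIR26A1 and MIR342 among them. Over the gene spans of RefSeq, 29 hairpin rows lay on the same strand as a protein-coding gene, 12 on that of a long non-coding gene, 10 overlapped a gene on the opposite strand or with no strand in the tables used, and 10 overlapped none. Whether a hairpin lies in an exon or an intron was not analysed here.

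At day 14 a group of microRNA hairpins was several-fold higher in the footprints of sgDDX3 cells than in those of sgGal4 cells. Of the 92 rows, 14 were higher at an adjusted p under 0.05 and 0 were lower, where 3.4% of all 19780 rows tested were called, 2.11% higher and 1.29% lower. They were 13 hairpins (MIR191, MIR16-2, MIR16-1, MIR342, MIR93, MIR320A, MIR25, MIR425, MIR26A1, MIR146B, MIR193B, MIR26A2 and MIR126) and the host transcript MIR17HG. The median log2 difference of the 61 hairpins was 0.87, beside 0.004 over all rows, and that of the 31 host rows was 0.12. Both sgDDX3 libraries lay above both sgGal4 libraries for 36 of the 61 hairpins and below for 3, where 23.5% of all rows lay above and 20.6% below. These counts include 15 rows that reached a sum of 100 only with the sgDDX3 libraries of day 14. Over the 77 rows that reach it without them, 12 were called higher and 0 lower, and of their 47 hairpins 25 lay above and 3 below, with a median of 0.79.

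MIR191, a microRNA abundant in blood cells, on chromosome 3 at 49020618 to 49020709 in the DALRD3 gene, had the largest difference. Its footprint CPM at day 14 were 41.5 and 19.8 in sgDDX3 and 0.903 and 2.16 in sgGal4, and the log2 difference was 4.34 (SE 0.46, adjusted p = 0.000331). At the other days it lay between 2.71 and 12.9 CPM in every library. MIR425, which lies beside it at 49020148 to 49020234, had 11.3 and 7.94 CPM against 2.61 and 1.29 (log2 2.29, SE 0.34, adjusted p = 0.00328). For both rows the groups did not overlap and replicate 1 of sgDDX3 was the highest of all 12 footprint libraries.

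MIR16-2 (chromosome 3, 160404745 to 160404825, in SMC4) and MIR16-1 (chromosome 13, 50048973 to 50049061, in DLEU2) belong to the miR-15/16 family, known for restraining cell cycle and survival genes. MIR16-2 had 104 and 25.2 CPM in sgDDX3 and 2.01 and 5.07 in sgGal4 at day 14, with a log2 difference of 4.21 (SE 0.58, adjusted p = 0.00218). MIR16-1 had 105 and 21.7 CPM against 3.21 and 5.39 (log2 3.90, SE 0.58, adjusted p = 0.00315). The rows tracked each other over the 12 libraries, with a ratio of MIR16-1 to MIR16-2 counts between 0.707 and 1.6, and they share the mature sequence printed above, so their counts are not independent. The 2 sgDDX3 libraries were far apart here, with mean 64.5 ± 55.5 CPM (SD, n = 2) for MIR16-2. Without the higher one, replicate 1, the log2 difference was 2.84 (adjusted p = 0.00308) for MIR16-2 and 2.33 (adjusted p = 0.00257) for MIR16-1. MIR15B, their seed relative just upstream of MIR16-2 in SMC4, had 2.69 and 1.18 CPM against 0.401 and 0.108, with adjusted p = 0.0514.

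The cluster of MIR106B, MIR93 and MIR25 in the MCM7 gene on chromosome 7, a relative of the cluster in MIR17HG, held rows that passed and a row that did not. MIR93 (100093768 to 100093847) had 44.3 and 19.2 CPM in sgDDX3 and 3.31 and 4.85 in sgGal4 at day 14, a log2 difference of 2.97 (SE 0.42, adjusted p = 0.00252). MIR25 had 4.54 and 2.25 CPM against 0.802 and 0.432 (log2 2.45, SE 0.56, adjusted p = 0.0308). MIR106B, whose mature RNA has the seed of miR-93-5p, had 8.43 and 5.8 CPM against 5.02 and 4.85, a log2 difference of 0.54 (SE 0.21, adjusted p = 0.197). The difference between the rows of the cluster was not tested. At day 0 with sgGal4, MIR93 and MIR106B were at similar CPM, 5.84 and 5.93 for MIR93 and 6.97 and 6.96 for MIR106B.

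**Figure D2:**
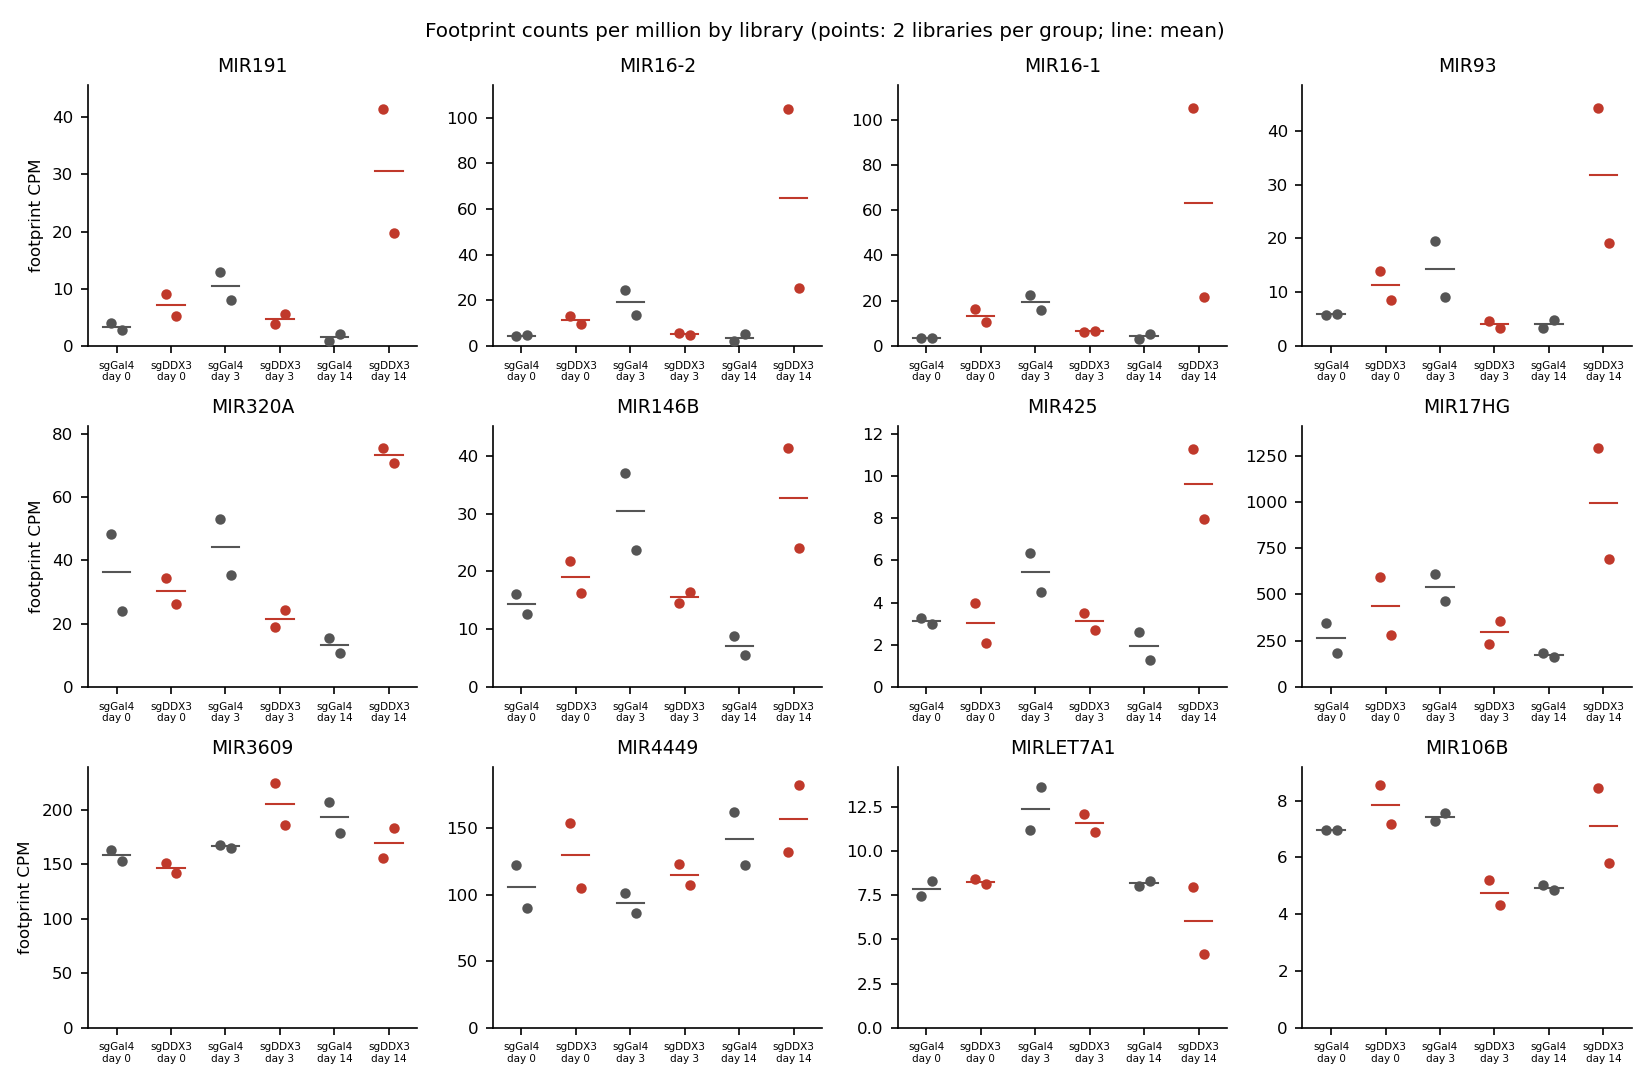
Footprint CPM of 12 microRNA rows, a panel each with its own axis from 0, by guide and day, with a point for each library and a line at the group mean. In the first 8 panels both sgDDX3 libraries of day 14 lie above both sgGal4 libraries of day 14, with replicate 1 the higher for each. In the last row, MIR3609, MIR4449 and MIRLET7A1 show no such step, and MIR106B a small one (8.43 and 5.8 CPM against 5.02 and 4.85).

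MIR320A, whose hairpin is known to be made without DROSHA, was close between replicates, with 75.4 and 70.8 CPM in sgDDX3 and 15.5 and 10.8 in sgGal4 at day 14 (log2 2.47, SE 0.30, adjusted p = 0.000876). MIR146B, a microRNA of innate immune signalling, had 41.3 and 24 CPM against 8.73 and 5.5 (log2 2.20, SE 0.30, adjusted p = 0.00191). MIR193B had 30.8 and 26.1 CPM against 8.83 and 5.83 (log2 1.95, adjusted p = 0.00898). MIR126, known from endothelial and blood stem cells, had 30.5 and 10.7 CPM against 6.52 and 7.44 (log2 1.58, adjusted p = 0.0241), and without replicate 1 of sgDDX3 the log2 difference was 0.60 and not called.

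MIR342, MIR26A1 and MIR26A2 were at low counts. MIR342 had 43 and 7 counts in the sgDDX3 libraries of day 14 and 4 and 1 in those of sgGal4, a log2 difference of 3.21 (adjusted p = 0.0347). It ranged from 1.62 without replicate 1 of sgDDX3 (adjusted p = 0.457) to 4.39 without replicate 1 of sgGal4 (adjusted p = 0.0988), and the call held in 1 of the 4 fits that left out a library. MIR26A1 had 5.19 and 2.61 CPM against 0.502 and 1.19 (log2 2.23, adjusted p = 0.0356), and MIR26A2 4.82 and 3.79 against 1.2 and 1.4 (log2 1.73, adjusted p = 0.0303). MIR26B, with the miR-26 seed, had 5.19 and 1.9 against 1.1 and 1.51, with adjusted p = 0.0833.

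Other hairpins did not pass at day 14. Of the let-7 family, differentiation microRNAs that share the seed GAGGUAG, 0 of 4 passed: the log2 differences were -0.40 for MIRLET7A1, 0.23 for MIRLET7D, 0.14 for MIRLET7F1 and 0.12 for MIRLET7I. MIRLET7A1 had 7.97 and 4.15 CPM in sgDDX3 and 8.02 and 8.31 in sgGal4. MIR27A and MIR27B, which share the seed UCACAGU, had log2 differences of 0.51 and -0.17, and MIR23A, of the same primary transcript as MIR27A, had 1.30 (adjusted p = 0.0609). MIR103A2 was at -0.22 and MIR324 at -0.26. MIR30E and MIR30C1, with the seed GUAAACA, were at 1.47 and 1.43, with adjusted p = 0.149 and 0.231. The copies of miR-320b, MIR320B1 and MIR320B2, were at 2.67 and 1.89, with adjusted p = 0.106 and 0.129.

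One library stood highest for many of these rows. Replicate 1 of sgDDX3 at day 14 held the highest of 12 values for 30 of the 61 hairpins (49.2%), where it did so for 9.19% of all rows. Without it 8 of the 14 rows were still called (MIR191, MIR16-1, MIR16-2, MIR93, MIR320A, MIR425, MIR146B and MIR17HG), and without replicate 2 of sgDDX3 18 rows were called, 13 of them among the 14. Without replicate 1 of sgGal4 9 were called, and without replicate 2 of sgGal4 10 were called, 8 of them among the 14. DESeq2 called 10 of the 14 and no other row, and gave no adjusted p for MIR25, MIR26A1, MIR26A2 and MIR342.

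Other small RNA classes were also higher in the sgDDX3 footprints of day 14. Sums were taken over the 57 hairpin rows that neither lie on another small RNA by position nor copy such a row. MIR1246, whose mature sequence is known to match U2 snRNA, stayed among them. Footprints of these 57 rows held 827 and 541 CPM in sgDDX3 at day 14 and 336 and 296 in sgGal4, 2.16-fold higher in the mean. They held 290 to 491 in the other 8 libraries. Over the same libraries SCARNA rows, guides of snRNA modification, held 854 and 903 against 510 and 479 CPM, 1.78-fold, and SNORA rows, guides of pseudouridylation, 2068 and 2179 against 1294 and 1340, 1.61-fold. U2 snRNA rows were 1.56-fold higher, 7SL RNA rows 1.44-fold and SNORD rows 1.31-fold, with no overlap of the groups. All spliceosomal snRNA rows together were 1.07-fold higher, with groups that overlapped. In the fit, 13 of 61 hairpins were called higher (21.3%), 23 of 42 U2 snRNA rows (54.8%), 7 of 65 7SL RNA rows (10.8%), 17 of 63 SNORA rows (27%), 4 of 16 SCARNA rows (25%), 4 of 54 SNORD rows (7.41%) and 294 of 12294 protein-coding rows (2.39%). The part of the other small RNAs in the microRNA result was not tested. MIR17HG apart, host transcript rows held 247 and 257 CPM in sgDDX3 at day 14 and 341 and 286 in sgGal4.

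**Figure D3:**
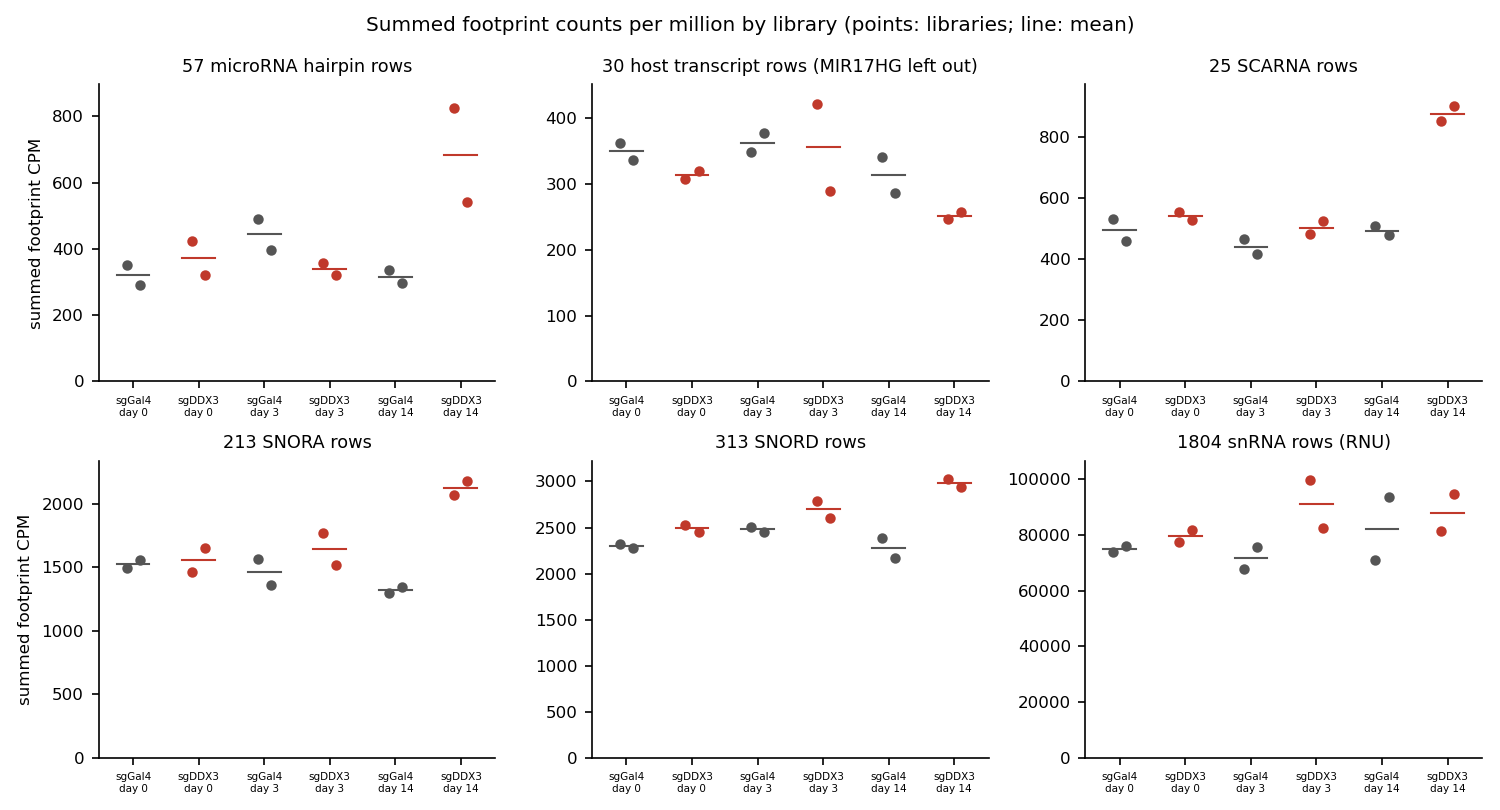
Summed footprint CPM of 6 classes of rows by guide and day, each panel with its own axis from 0, a point for each library and a line at the mean. The hairpin, SCARNA, SNORA and SNORD sums are highest in the 2 sgDDX3 libraries of day 14, the host transcript sum without MIR17HG is lowest there, and the snRNA sum overlaps between the guides at day 14.

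At day 3 most hairpin differences were below 0, and few passed. In footprints MIR615 was higher in sgDDX3 cells than in sgGal4 cells, and MIR15B and MIR93 were lower, 3 of the 92 rows, where 3.81% of all rows were called, 1.55% higher and 2.25% lower. The median log2 difference of the 61 hairpins was -0.65, beside 0.02 over all rows, and 49 of 61 were below 0. Both sgDDX3 libraries lay below both sgGal4 libraries for 30 of the 61, where 22.3% of all rows did so, and above for 7, where 25.4% did so. Of the 92 rows, 11 reached a sum of 100 only with the sgGal4 libraries of day 3, MIR15B among them. The day 3 counts were not repeated without those rows. The drop was not particular to hairpins: 7SL RNA rows had a median of -0.74, with 10 of 65 called lower and 1 higher. Their summed CPM was 1.13-fold that of sgGal4, with groups that overlapped. Medians of U2 snRNA, SNORA, SCARNA and SNORD rows were 0.016, 0.172, 0.083 and 0.391. MIR93 had 4.7 and 3.38 CPM in sgDDX3 and 19.5 and 9.11 in sgGal4 (log2 -1.88, SE 0.48, adjusted p = 0.0452). MIR15B had 1 and 2 counts in sgDDX3 and 21 and 33 in sgGal4 (log2 -3.61, SE 0.81, adjusted p = 0.0294). Summed, that was 54 against 3 counts, 12.8-fold lower per total count (95% exact interval 4.15 to 64). MIR615, a hairpin inside the HOXC cluster, had 52.7 and 24.1 CPM against 13.4 and 15.7 (log2 1.39, SE 0.30, adjusted p = 0.0251).

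The day 3 calls changed with the libraries used. Without replicate 1 of sgDDX3 at day 3 none of the 3 passed, with adjusted p = 0.0862 for MIR15B, 0.0773 for MIR93 and 0.127 for MIR615, and without each of the other 3 libraries of the comparison 1 of the 3 passed. In a fit on the 4 libraries of the comparison alone all 3 calls were lost and MIR16-1 was called lower. DESeq2 kept MIR93 and MIR615 and gave no adjusted p for MIR15B. MIR191, MIR16-2 and MIR16-1 were also lower in both sgDDX3 libraries at day 3 (log2 -1.16, -1.86 and -1.59), with adjusted p = 0.167, 0.117 and 0.175. MIR130AHG had 47.5 CPM in replicate 1 of sgDDX3 at day 3, 6.76 in replicate 2 and at most 8.85 in every other library.

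**Figure D4:**
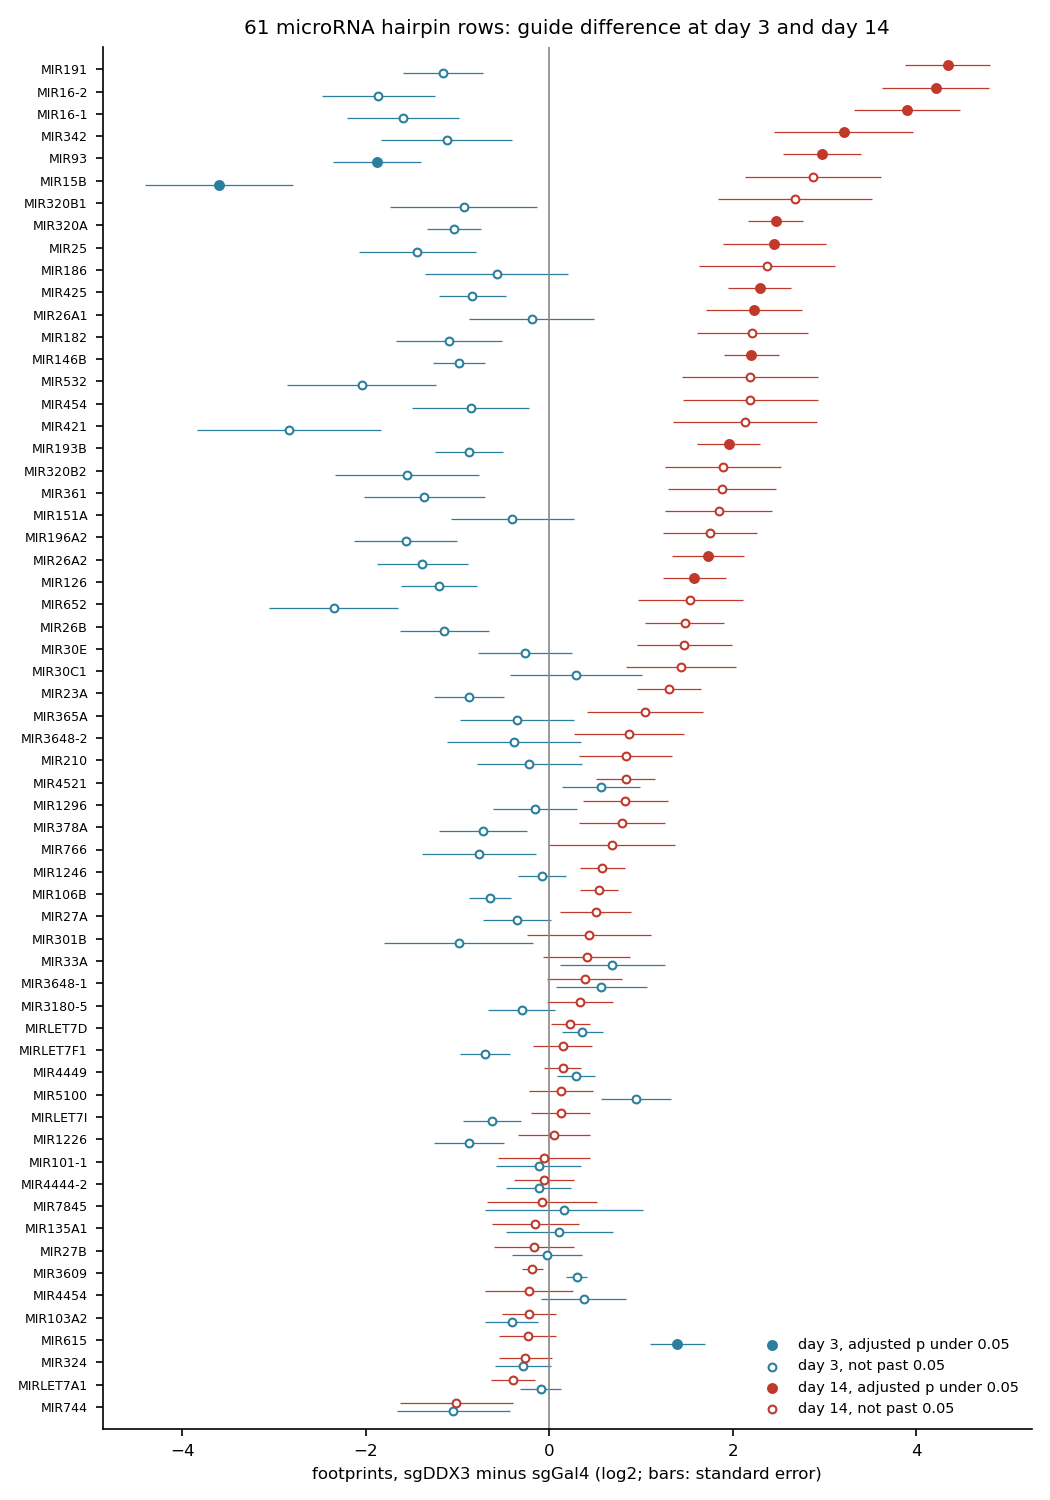
Log2 difference between sgDDX3 and sgGal4 footprints of the 61 hairpin rows at day 3 (blue) and day 14 (red), with bars of 1 standard error and filled points at an adjusted p under 0.05. The filled points are 13 at day 14, all above 0, and 3 at day 3, MIR615 above 0 and MIR15B and MIR93 below it.

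The change of the guide difference from day 3 to day 14 was tested itself. Of the 92 rows 9 passed, all upward: MIR191, MIR320A, MIR146B, MIR93, MIR16-2, MIR16-1, MIR17HG, MIR425 and MIR15B. MIR15B fell below a sum of 100 without the sgGal4 libraries of day 3, and also without the sgDDX3 libraries of day 14. Its call is therefore not independent of the rule. The other rows called still reached 100 when either group was left out. The count was not repeated over rows that qualify without these groups. In that contrast 25 of all 19780 rows passed, 0.126%, so these 9 were among 25, beside 5 U2 snRNA rows, 5 SNORA or SNORD rows, 2 7SL RNA rows and 4 protein-coding genes, DDX3X among them. For MIR191 the change was 5.50 on the log2 scale (SE 0.64, adjusted p = 0.00579), and for MIR320A 3.51 (SE 0.42, adjusted p = 0.00579). The 2 days have no libraries in common. Over the 61 hairpins the median change was 1.42, beside 1.43 for 7SL RNA rows, 0.785 for U2 snRNA rows and -0.009 over all rows. For SNORA, SCARNA and SNORD rows it was 0.265, 0.258 and -0.026. Without each of the 8 libraries in turn, MIR191, MIR320A, MIR146B and MIR93 passed every time, while the count over the 92 rows ranged from 5 without either sgGal4 library of day 14 to 17 without replicate 2 of sgDDX3 at day 14.

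In the control cells 2 rows passed between day 0 and day 3. In sgGal4 footprints, 52 of the 61 hairpins were higher at day 3 than at day 0, with a median log2 difference of 0.64. For 36 of 61 both day 3 libraries lay above both day 0 libraries, where 24% of all rows did. These day 3 libraries also entered the rule: 11 of the 92 rows reached a sum of 100 only with them, MIR15B among them. The counts were not repeated without those rows. The rows called were MIR15B, which rose by 2.62 on the log2 scale (adjusted p = 0.0473), and MIR210HG, the host of a hypoxia microRNA, which fell by 1.85 (adjusted p = 0.0288), 2 of 92, where 1.26% of all rows were called. MIR16-1 had 3.49 and 3.42 CPM at day 0 and 22.7 and 15.7 at day 3 (log2 2.49, adjusted p = 0.0624), and MIR191 4.02 and 2.71 and then 12.9 and 7.95 (log2 1.67, adjusted p = 0.0682). By day 14 MIR16-1 was at 3.21 and 5.39 CPM and MIR191 at 0.903 and 2.16. Neither call held without replicate 1 or replicate 2 of day 0 or replicate 2 of day 3, and without replicate 1 of day 3 MIR15B held. MIR15B was given no adjusted p by DESeq2 and was not tested at a minimum count of 30. Other small RNAs rose too: U2 snRNA rows summed to 7554 and 8055 CPM at day 0 and 12310 and 12426 at day 3. At day 14 they were at 5972 and 7035. SNORD sums went from 2319 and 2281 to 2511 and 2449 at day 3, and SNORA, SCARNA and 7SL RNA sums overlapped between day 0 and day 3. These sums were not tested.

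From day 0 to day 14 in sgGal4, MIR3659HG rose by 1.62 (adjusted p = 0.0135) and MIR320A fell by 1.44 (adjusted p = 0.0281), 2 of 92, where 2.47% of all rows were called. MIR320A went from 48.4 and 23.9 CPM to 15.5 and 10.8. Without replicate 1 of sgGal4 at day 0, or without replicate 2 at day 14, neither passed, and without replicate 2 at day 0 MIR3659HG did not. The sgGal4 day 3 and day 14 libraries are also the controls of the guide comparisons of those days, so a low or high control level enters both.

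At the label day 0, which also carries the doxycycline label, 0 of the 92 rows passed between the guides, where 0.0101% of all rows did. DDX3X did not pass either, though both sgDDX3 libraries lay below both sgGal4 libraries in each assay. Its log2 difference was -0.21 in RNA (adjusted p = 0.999) and -0.11 in footprints. At an unadjusted p under 0.05 there were 11 of the 92 rows, 7 higher and 4 lower, where 2.71% of all rows were higher and 2.14% lower, and DESeq2 called 1, MIR615, lower with sgDDX3. Both sgDDX3 libraries lay above both sgGal4 libraries for 24 of 61 hairpins, where 18% of all rows did, and below for 7. MIR16-1 already had 16.2 and 10.5 CPM in sgDDX3 against 3.49 and 3.42 in sgGal4 (log2 1.92, adjusted p = 0.801), and MIR93 13.9 and 8.63 against 5.84 and 5.93. In the sgDDX3 cells the order of days for these rows was day 14, day 0, day 3, and in the sgGal4 cells day 3 stood highest.

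No host gene of MIR191, MIR93 or MIR16-2 passed at day 14. In footprints DALRD3, which hosts MIR191 and MIR425, had 12 and 11.5 CPM in sgDDX3 and 11.2 and 11.3 in sgGal4 (log2 0.06, adjusted p = 0.893). MCM7, a subunit of the replicative helicase, had 407 and 370 against 398 and 377 (log2 0.0046, adjusted p = 0.993). SMC4, a condensin subunit, had 152 and 149 against 99.5 and 143 (log2 0.32, adjusted p = 0.368). In RNA their log2 differences at day 14 were -0.18, -0.08 and 0.11, with adjusted p = 0.476, 0.655 and 0.389. DLEU2, the non-coding host of MIR16-1, had 15.6 and 7.23 footprint CPM against 2.61 and 6.15 (log2 1.41, adjusted p = 0.0564) and 0.12 in RNA (adjusted p = 0.699). At day 3 MCM7 and SMC4 were lower in RNA (log2 -0.33 and -0.24, adjusted p = 0.0188 and 0.0292), where 6.39% of all rows were lower. DALRD3 RNA was at 0.02 (adjusted p = 0.953). In footprints at day 3 MCM7, SMC4 and DALRD3 were at -0.29, 0.20 and -0.24, with adjusted p = 0.147, 0.601 and 0.442.

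Other hosts differed among themselves at day 14. EVL, the host of MIR342, was lower in RNA (log2 -0.24, adjusted p = 0.0376), and CTDSP2, the host of MIR26A2, was lower in footprints (log2 -0.51, adjusted p = 0.0136). EGFL7, which hosts MIR126, was at 0.05 in footprints and 0.17 in RNA, with adjusted p = 0.875 and 0.254. CTDSPL, the host of MIR26A1, was higher in RNA (log2 3.19, SE 0.70, adjusted p = 0.00349) and at 0.30 in footprints (adjusted p = 0.837). The host and hairpin differences were not tested against each other.

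**Figure D5:**
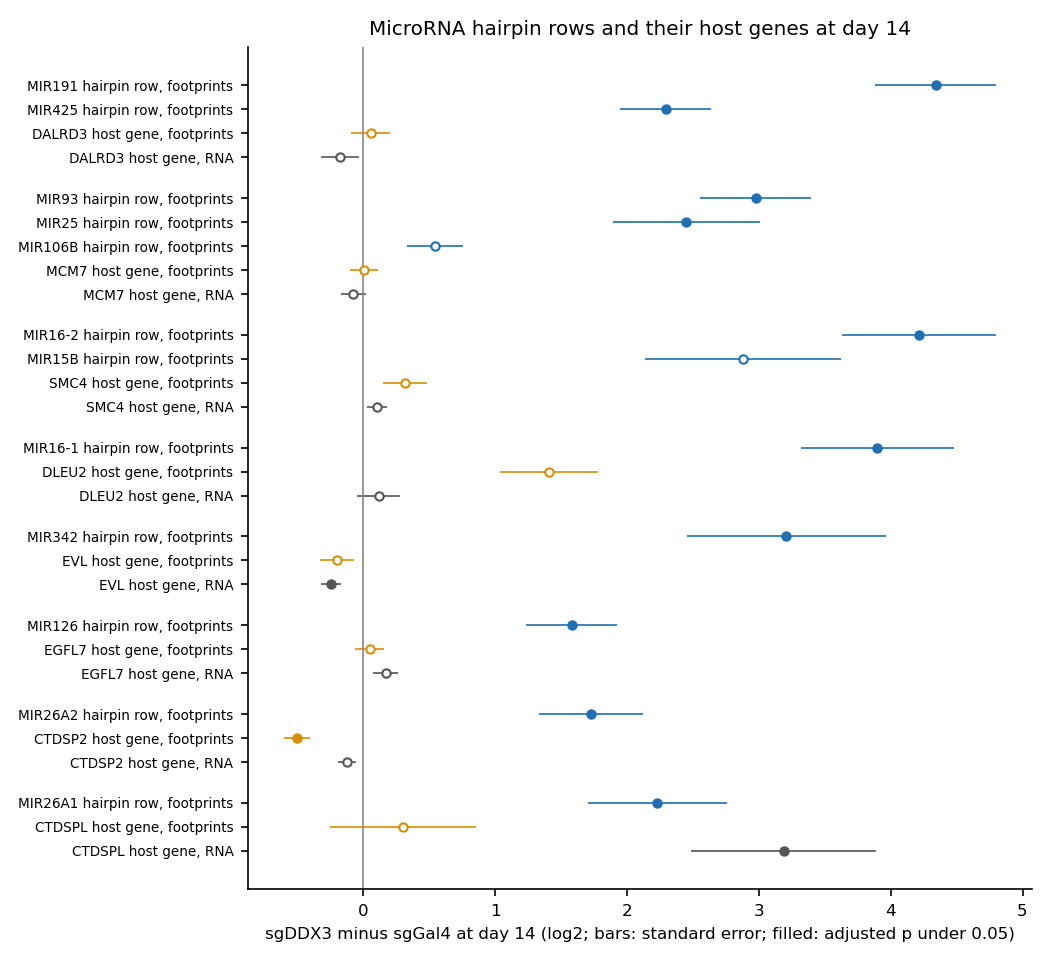
Log2 difference between sgDDX3 and sgGal4 at day 14 for hairpin rows in footprints (blue) and for their host genes in footprints (orange) and RNA (grey), with bars of 1 standard error and filled points at an adjusted p under 0.05. The hairpins of DALRD3, MCM7 and SMC4 lie between 0.54 and 4.34, and the 3 hosts between -0.18 and 0.32 in both assays.

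MIR17HG was the exception among host transcripts. It is the primary transcript of the cluster from miR-17 to miR-92a, an oncogenic cluster driven by MYC, and lies on chromosome 13 at 91347687 to 91354577, with 6 hairpins inside it in RefSeq, none of which was matched to a row of its own here. Whether its footprint counts are those of the hairpins cannot be told apart in these tables. Its footprint CPM were 1290 and 694 in sgDDX3 and 183 and 164 in sgGal4 at day 14 (log2 2.51, SE 0.38, adjusted p = 0.00328). In RNA it had 32.5 and 26.5 against 32.2 and 32.7 CPM, and the ratio of footprints to RNA was higher by 2.66 on the log2 scale (SE 0.43, adjusted p = 0.000858). It was the 1 row of the 31 tested for that ratio to pass at day 14, where 1.73% of 14853 rows did, and it passed without each of the 8 libraries in turn. At day 3 its footprints were 234 and 358 CPM in sgDDX3 and 612 and 466 in sgGal4 (log2 -0.87, adjusted p = 0.215), and at day 0 596 and 280 against 344 and 184. For the ratio at day 3, 0 of 31 rows passed, where 5.29% of all rows were called. None of the 31 had an unadjusted p under 0.05 by edgeR, where 17.4% of all rows did, and DESeq2 called 0.

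Few microRNA loci passed in RNA. Of the 92 rows, 31 had enough RNA counts to be tested, 26 host transcripts and 5 hairpins. At day 0 none of the 31 passed, where 0.00547% of all rows did, with 1 at an unadjusted p under 0.05, where 4.55% of all rows were, and DESeq2 called 0. At day 3 MIR600HG was higher in sgDDX3 (64.3 and 67 CPM against 53.2 and 43, log2 0.42, adjusted p = 0.00302) and MIR924HG lower (2.32 and 1.28 against 4.07 and 3.38, log2 -0.95, adjusted p = 0.00894), 2 of 31, where 14.1% of all rows were called. At day 14 MIR1915HG was higher (11.1 and 10.8 against 6.91 and 7.41, log2 0.60, adjusted p = 0.0162), and MIR223HG (59.9 and 82.6 against 92.8 and 99, log2 -0.43, adjusted p = 0.00679) and MIR4435-2HG (54 and 50.7 against 68.6 and 65.4, log2 -0.35, adjusted p = 0.00447) were lower, 3 of 31, where 14.6% of all rows were called. Each of these 5 calls was lost without at least 1 library of its comparison: MIR600HG without replicate 2 of sgGal4, MIR924HG without replicate 1 of sgGal4 or replicate 2 of sgDDX3, MIR4435-2HG without replicate 1 of sgGal4, MIR223HG without replicate 2 of sgGal4 or replicate 1 of sgDDX3, and MIR1915HG without either sgGal4 replicate or replicate 1 of sgDDX3. In footprints at day 14 MIR223HG was at -0.16 and MIR4435-2HG at -0.24, with adjusted p = 0.599 and 0.249. Summed over the 61 hairpins, RNA held 4.76 to 7.64 CPM in every library.

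Set apart were 4 hairpin rows, each on another small RNA or ribosomal RNA gene or a copy of such a row. MIR3609, with 19935 of the 68452 hairpin footprint counts, overlaps SCARNA28 on chromosome 7 (98881650 to 98881729), so its reads cannot be assigned to the microRNA. Its footprint CPM ranged from 142 to 224 over the 12 libraries, with a log2 difference of -0.18 at day 14 (adjusted p = 0.442). MIR4521 overlaps a transfer RNA gene, and MIR3648-1 lies in a 45S ribosomal RNA gene, with MIR3648-2 as its copy. None of these 4 passed in any comparison of guides. MIR4449 lies inside DANCR, a non-coding host of snoRNAs, and had 86.5 to 182 CPM (log2 0.14 at day 14, adjusted p = 0.778). MIR1246, whose mature sequence is known to match U2 snRNA, had 14.4 and 11.8 CPM against 7.52 and 10.1 at day 14 (log2 0.58, adjusted p = 0.23), beside U2 snRNA rows of which 23 of 42 were called higher. MIR4454 had 5.42 to 20.8 CPM in footprints and no RNA count, and the host transcript MIR3667HG 17.7 to 24.8 CPM. Their log2 differences at day 14 were -0.22 and -0.18, with adjusted p = 0.864 and 0.612.

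The genes that make and use microRNAs were read from a list of 45, all of which had enough counts in both assays. In RNA at day 3, 7 were higher and 4 lower in sgDDX3 cells, where 7.68% of all rows were higher and 6.39% lower. At day 14 8 were higher and 2 lower, where 8.44% and 6.18% of all rows were. In footprints 0 were higher and 1 lower at day 3, where 1.55% and 2.25% of all rows were, and 4 higher and 0 lower at day 14, where 2.11% and 1.29% were. The median log2 difference in footprints was 0.13 at day 3 and 0.09 at day 14, beside 0.02 and 0.00 over all rows. For the ratio of footprints to RNA, 3 were lower at day 3, where 4.68% of all rows were lower and 0.613% higher. At day 14 2 were lower, where 1.33% of all rows were lower and 0.397% higher, and 0 of the list were higher at either day. AGO2, the Argonaute that cuts targets, differed in opposite directions in the 2 assays at day 3. Its RNA was 416 and 430 CPM in sgDDX3 and 267 and 260 in sgGal4 at day 3 (log2 0.68, adjusted p = 3.63e-07), while its footprints were 28 and 26.8 against 45.1 and 47.9 (log2 -0.76, adjusted p = 0.00128). Its ratio was lower at day 3 (log2 -1.45, adjusted p = 3.66e-09) and at day 14 (log2 -0.84, adjusted p = 5.58e-05).

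PRKRA, a DICER1 partner, had a lower ratio at day 3 (log2 -0.84, adjusted p = 0.000134) and day 14 (log2 -0.55, adjusted p = 0.0275), and AGO4 at day 3 (log2 -0.69, adjusted p = 0.0316). DICER1 RNA was higher at both days, by 0.32 (adjusted p = 0.0137) and 0.35 (adjusted p = 0.0098). The 4 genes higher in footprints at day 14 were MOV10, an RNA helicase of silencing complexes (log2 0.72, adjusted p = 0.00432), SND1, a nuclease (log2 0.59, adjusted p = 0.038), SRRT, a cap complex partner of DROSHA (log2 0.47, adjusted p = 0.0499), and LIN28A, which binds let-7 precursors (log2 2.87, adjusted p = 0.0433). LIN28A was low, with 1.67 and 1.54 footprint CPM in sgDDX3 at day 14 and 0 and 0.432 in sgGal4. With any 1 library of the comparison left out, 1 or 2 genes of the list were called in footprints at day 14.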

How the data were processed

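Raw counts of reads per gene, unscaled, were deposited by the authors as 1 table for footprints and 1 for RNA. The build GRCh38 and the tools STAR 2.7.5a, Bowtie2 2.4.1, cutadapt 3.4 and DESeq2 are named, per the submitters' processing notes. Not given in the sources used here are the counting tool, annotation, strand setting, footprint length selection and treatment of reads with several matches, so rows that overlap or share a sequence are uncertain. Each table had 58037 rows, and 45 Y copies of pseudoautosomal genes were left out. Counts were tested with edgeR 4.0.16 (R 4.3.3; TMM, filterByExpr with a minimum count of 10, quasi-likelihood F-test, Benjamini-Hochberg over all rows, called at 0.05), with the 12 libraries of an assay in 1 fit, or all 24 for the footprint-to-RNA ratio. Log2 differences are sgDDX3 over sgGal4 and the SE comes from the F statistic. DESeq2 1.42.0 and other settings were alternatives. The fits were tested on simulated data.

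The members, gene lists and tests were chosen with earlier results of these data known. The test of the guide difference between days, and the day 14 counts over rows that reach the sum without the sgDDX3 libraries of day 14, were added after the data were seen. Named rows were the markers, the 15 largest by footprint sum, all called rows, their clusters and seed relatives, rows at the edge of the rule, rows on other small RNAs, hosts, and up to 4 pathway genes per comparison. MIR103A2, MIR103A1, MIR324, MIR23A, MIR27A, MIR27B, MIR30C1, MIR30E, MIR130AHG, MIR1246, MIR1244-2 and DICER1 were chosen after their values were seen.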

Additional observations from a re-analysis of the deposited data

Results flagged for a closer look

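For 9 rows the difference between sgDDX3 and sgGal4 footprints changed from day 3 to day 14, by the test of that change itself (edgeR, adjusted over all rows). For MIR15B it was 6.48 on the log2 scale (adjusted p = 0.0416), from 1 and 2 counts in sgDDX3 at day 3 to 29 and 10 at day 14. MIR15B reached a sum of 100 only with the groups in which it was high, and its call was lost in 5 of 8 fits that left out a library, with adjusted p up to 0.179. The change was 6.08 for MIR16-2 (adjusted p = 0.0104) and 5.49 for MIR16-1 (adjusted p = 0.0207), rows that share a mature sequence. It was 5.50 for MIR191 (adjusted p = 0.00579), 4.85 for MIR93 (adjusted p = 0.00696), 3.51 for MIR320A (adjusted p = 0.00579), 3.38 for MIR17HG (adjusted p = 0.0212), 3.19 for MIR146B (adjusted p = 0.00696) and 3.13 for MIR425 (adjusted p = 0.0289).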

How the results depend on the processing

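Over the 21 results that answer a comparison, 143 of 202 values under alternatives stayed within 1.5 times of the reported one. Of 413 values of called rows under alternatives, 343 kept their call, 70 lost it and 0 reversed. Rows not called were not followed. Counts of microRNA rows called between guides in footprints depended most on the filter: with no filter on low counts they were 10 at day 0, 20 at day 3 and 30 at day 14, with 10 for sgGal4 from day 0 to day 14, 15 from day 0 to day 3, 30 for the change between days, and 1 and 3 for the ratio at day 3 and day 14. With DESeq2, 1 row was called in footprints at day 0, 1 in RNA at day 3 (MIR924HG was given no adjusted p), and 4 genes of the biogenesis list for the ratio at day 14. With a minimum count of 30, 1 row was called in sgGal4 from day 0 to day 3, since MIR15B was not tested. Fits on the compared libraries alone called 5 rows at day 0, 1 at day 3 (MIR16-1, with all 3 reported calls lost) and 17 in sgGal4 from day 0 to day 3. The summed hairpin ratio at day 14 was 1.67 over all 61 rows and 2.16 without MIR3609 or without the 4 rows set apart for another small RNA. The cause of these shifts was not tested. Leaving out 1 library gave 8 to 18 rows at day 14, 0 to 3 at day 3, 5 to 17 for the change between days, 0 to 1 and 0 to 3 in sgGal4 to day 3 and to day 14, 1 to 2 and 1 to 4 in RNA at day 3 and day 14, and 0 to 1 and 1 to 2 for the ratio. For the biogenesis list it gave 4 to 8 and 5 to 12 in RNA, 1 to 4 and 1 to 2 in footprints, and 2 to 8 and 1 to 3 for the ratio, at day 3 and day 14. A group left with 1 library is assumed to vary like the others.

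Over all rows tested, same-numbered libraries of the guides did not deviate together in footprints (correlations 0.041, 0.094 and -0.056 at day 0, day 3 and day 14). In RNA the correlations were -0.048, 0.099 and 0.171. For the 57 hairpin rows not set apart for another small RNA, summed footprint CPM was higher in replicate 1 than in replicate 2 in every group. It was 353 and 290, 491 and 398, and 336 and 296 in sgGal4 at day 0, day 3 and day 14. In sgDDX3 it was 424 and 321, 359 and 322, and 827 and 541. Whether a replicate number marks anything shared was not tested. With the replicate block, 5 rows were called at day 3, 16 at day 14, 4 in sgGal4 from day 0 to day 3 (without MIR15B), 2 for the ratio at day 14 and 2 genes of the biogenesis list in footprints at day 14. Depth limits rows such as MIR342, with 1 to 43 counts in a library of day 14.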

Other observations

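Rows for copies of one microRNA did not share counts in one way. MIR16-1 and MIR16-2 had 2187 and 2181 footprint counts, and MIR3648-1 and MIR3648-2 had 143 and 124, while MIR103A1 had 0 footprint counts and MIR103A2 had 452. In RNA MIR103A1 had 16 counts and MIR103A2 had 4. MIR26A1 and MIR26A2 lay between, with 161 and 242 footprint counts. MIR1244-2 had the opposite profile to the hairpin rows described above, with 12 footprint and 7042 RNA counts.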
